A study of Homo sapiens with 15 samples.

Results

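CARD19, known as C9orf89 when it was chosen as a knockout target, was described together with 7 other genes whose products carry, bind or imitate the caspase recruitment domain (CARD) of the BCL10 pathway. The 8 genes, CARD19, BCL10, MALT1, CARD9, CARD10, CARD14, CARD8 and CARD16, were chosen by name and matched to their Ensembl identifiers among the 58735 genes of the tables. The rule that names them uses no measured value, but they were chosen with earlier results of these data known. RNA of HEK293T cells, a transformed human embryonic kidney line kept in DMEM, was sequenced in 15 libraries, 3 for each of 5 groups. The groups were the Non-target clone, which received lentiCRISPRv2 with a non-targeting guide and was labelled WT, and 4 knockout clones (CKO), each named for the gene at which its CRISPR vector had been aimed. Where 4 values are given for the clones, they follow the order C9orf89, MAGI2, MLPH, RHBDD2. All 5 cell populations carried the puromycin-selected vector and had been derived by limiting dilution, so each group is 1 clone and its 3 libraries are wells of that clone. The p-values below therefore measure the spread between wells, and the effect of a guide cannot be told apart from other differences between 1 clone and another. Each library held 15517856 to 19489918 fragments assigned to genes.

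All 8 marker genes listed for HEK293T cells (PAX2, LHX1, KRT8, KRT18, VIM, NEFM, NEFL and CDH2) passed the filter on low values, and VIM was the most abundant in each group. Their summed FPKM was 189 to 194 in MLPH-CKO, 143 to 147 in C9orf89-CKO, 132 to 136 in Non-target, 119 to 136 in MAGI2-CKO and 80.6 to 88.7 in RHBDD2-CKO. NEFM averaged 27.2 FPKM in Non-target but 0.0274 FPKM in MAGI2-CKO and 1.34 FPKM in RHBDD2-CKO. NEFL averaged 18.8 FPKM in Non-target, 0.984 FPKM in RHBDD2-CKO and 24.0 to 34.8 FPKM in the other clones. Of 5 fibroblast markers 2 passed the filter, and the summed level of the 5 averaged 3.51 to 5.15 FPKM, most of it COL1A1. In every group the first library stood apart from the other 2. A chi-square statistic on the fragments, per gene, was 14.6 to 24.8 between the first library and another of its group and 2.40 to 6.54 between the second and the third, so calls are also given with the first libraries left out, an analysis added after the data had been seen.

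A CARD is a small helical domain that binds other CARDs and lets proteins assemble into filaments. Scaffolds such as CARD9, CARD10 and CARD14, once activated by kinases such as protein kinase C, nucleate filaments of BCL10, which carry the paracaspase MALT1 and the ubiquitin ligase TRAF6 to the IκB kinases and so switch on NF-κB. CARD19 was first described as a BCL10-binding CARD protein, and its main form sits in mitochondria, where it associates with the MICOS complex of the cristae. CARD8 is a sensor that can assemble an inflammasome with caspase-1, and CARD16 is a short relative of caspase-1 that holds little more than its CARD.

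The deposited values are FPKM, fragments scaled to gene length and to the mapped fragments of the library, and they allow levels to be compared between genes. A gene was tested where at least 3 of the 15 libraries reached 0.5 FPKM, and 16175 genes were. Of the 8 CARD genes, 6 passed. CARD14 and CARD16 did not. Fold changes are differences of log2(FPKM + 0.1) from a limma fit of all 5 groups, given with their standard error (SE), and a gene was called when its p-value adjusted over all tested genes was below 0.05. All comparisons with Non-target used the same 3 control libraries, so they are not independent of each other.

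The C9orf89 guide is shown because it defines the clone, and its site shows where in the reading frame the cut was aimed. Its 20 bases matched 7 of the 9 annotated CARD19 transcripts (GENCODE v29, GRCh38) and no transcript of another gene among the 206694 searched. In ENST00000375464 the guide covered chr9:93107675-93107694 on the plus strand, within exon 2 of 6 (chr9:93107674-93107816), and the PAM lay at chr9:93107695-93107697. The expected Cas9 cut, between guide bases 17 and 18, falls after 25 of 549 coding bases, 4.55% of the reading frame. The first line below gives the guide with its PAM in capitals. The second gives the first 60 coding bases, spliced from chr9:93096346-93096352 and chr9:93107674-93107726, with the guide site and PAM in capitals.
C9orf89 guide with PAM: tcagacctattgtgaccgccTGG
CARD19 coding start: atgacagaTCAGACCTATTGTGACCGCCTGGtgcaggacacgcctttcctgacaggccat

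CARD19 (ENSG00000165233, chr9:93096218-93113283, plus strand) was lower in C9orf89-CKO than in Non-target. Its level was 5.70, 7.71 and 6.27 FPKM in the 3 Non-target libraries. It was 4.34, 4.27 and 4.34 FPKM in the 3 C9orf89-CKO libraries. Every C9orf89-CKO library lay below every Non-target library, and the level in the clone was 65.8% of the control level. The log2 fold change was -0.58 (SE 0.10, adjusted p = 0.000977), and CARD19 was called lower in all 24 alternative analyses and from replicates 2 and 3 alone (-0.68, adjusted p = 0.00281). The message was thus still present, with 221 to 237 fragments in each C9orf89-CKO library. A count of fragments over the whole gene does not show whether the reading frame was intact. In bulk RNA, less message per cell and fewer cells with the message cannot be told apart. The paper reports loss of the C9orf89 protein in its HEK293T C9orf89-CKO clone by western blot.

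The targeted gene was also lower in a clone in which it had not been targeted. CARD19 stood at 4.52, 5.17 and 4.69 FPKM in RHBDD2-CKO, again below all 3 Non-target libraries, with a log2 fold change of -0.44 (SE 0.10, adjusted p = 0.00489). This call was lost when only the 6 libraries of the comparison were fitted (adjusted p = 0.0526), but not from replicates 2 and 3 alone (-0.49, adjusted p = 0.00835). In MAGI2-CKO the level was 5.38, 5.86 and 6.22 FPKM and in MLPH-CKO it was 6.42, 6.46 and 7.17 FPKM. Both ranges overlapped Non-target, with log2 fold changes of -0.16 (SE 0.10, adjusted p = 0.237) and 0.04 (SE 0.10, adjusted p = 0.835).

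Set directly against the other clones, C9orf89-CKO had less CARD19 than MAGI2-CKO (log2 fold change -0.42, SE 0.10, adjusted p = 0.00913) and than MLPH-CKO (-0.62, SE 0.10, adjusted p = 0.0013). Against RHBDD2-CKO the difference was -0.15 on the log2 scale (SE 0.10) and was not called (adjusted p = 0.32), although the highest C9orf89-CKO library lay below the lowest RHBDD2-CKO library. C9orf89-CKO and RHBDD2-CKO were thus the groups with the least CARD19, and MLPH-CKO and Non-target those with the most, at means of 6.68 ± 0.42 and 6.56 ± 1.04 FPKM (SD, n = 3). The Non-target libraries were the most scattered of the 5 groups for this gene.

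**Figure D1:**
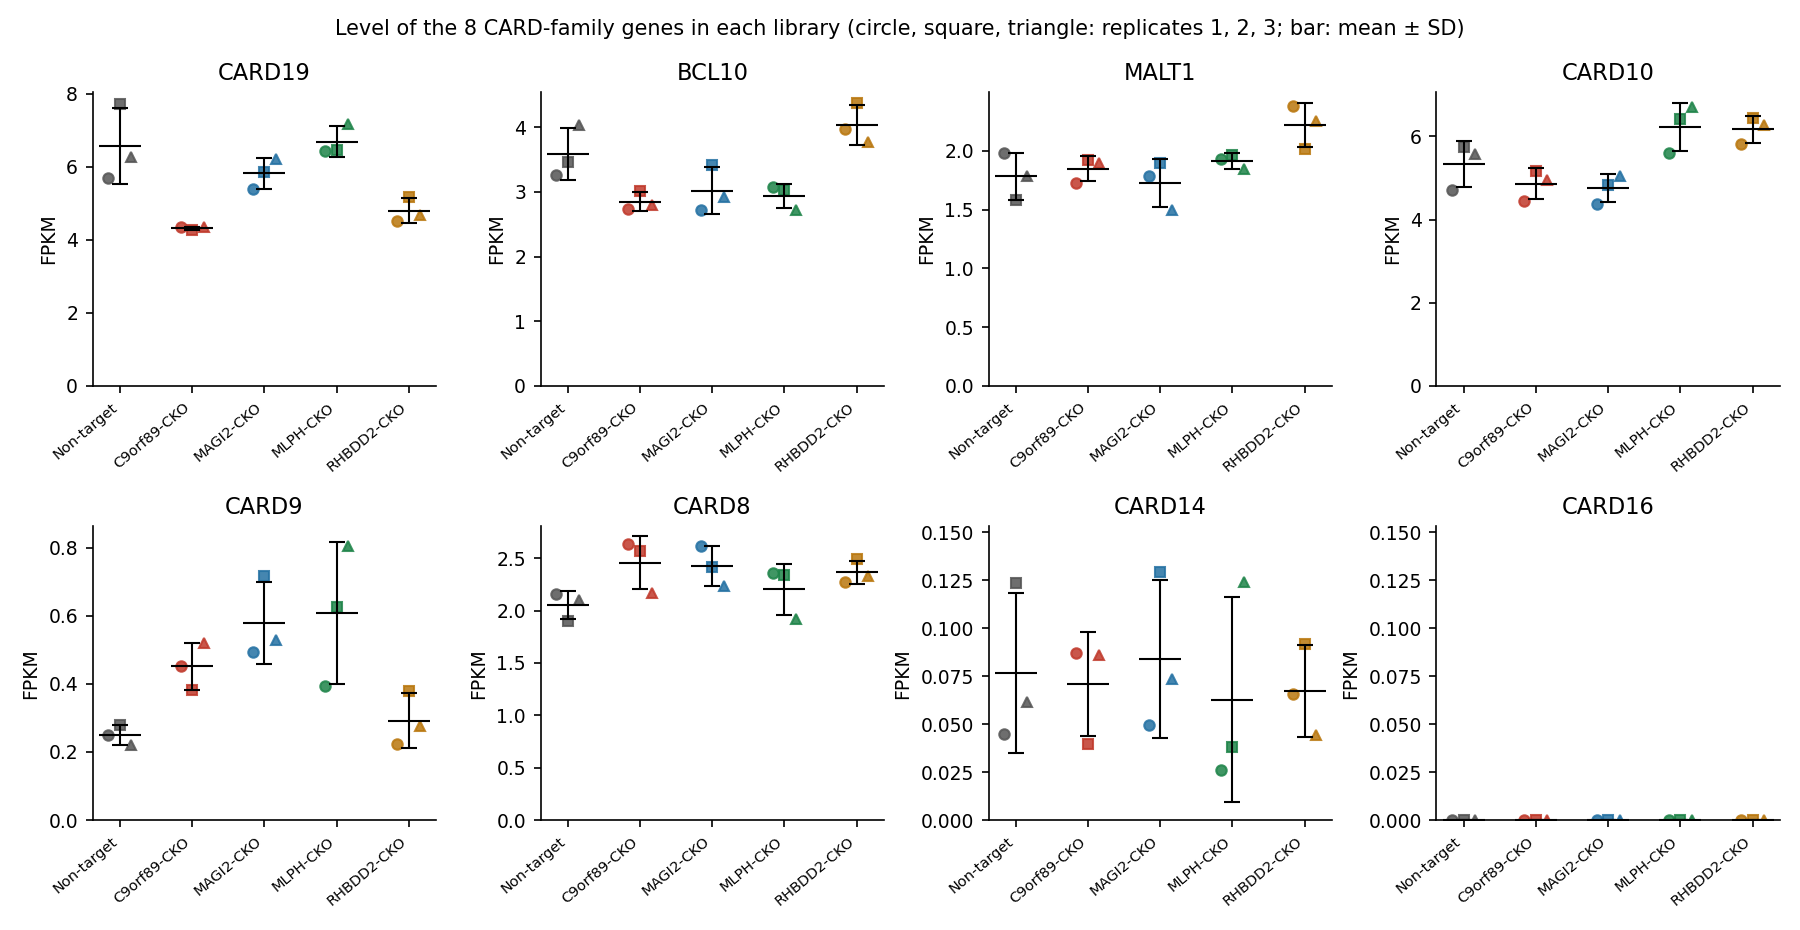
FPKM (y axis, starting at 0, a scale of its own in each panel) of the 8 CARD genes in the 15 libraries (x axis: group), with circles, squares and triangles for replicates 1, 2 and 3 and bars for the mean ± SD. The 3 CARD19 values of C9orf89-CKO, at 4.27 to 4.34 FPKM, sit below every library of the other groups, CARD9 is lowest in Non-target and RHBDD2-CKO, and CARD16 is at 0 throughout.

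Across the tested members, the counts called were small and near those of all genes. In C9orf89-CKO against Non-target, 2 of the 6 tested members were called, both lower (CARD19 and BCL10), where 26.0% of all tested genes were called, 12.9% higher and 13.1% lower. In MAGI2-CKO 1 of 6 was called, CARD9, higher, against 36.1% of all tested genes, 17.0% higher and 19.1% lower. In MLPH-CKO it was again CARD9 alone, higher, against 30.1% of all tested genes, 14.5% higher and 15.5% lower. In RHBDD2-CKO 2 of 6 were called, MALT1 higher and CARD19 lower, against 34.1% of all tested genes, 17.4% higher and 16.7% lower. The median log2 fold change of the 6 members was -0.04, -0.10, 0.10 and 0.18 in the 4 clones, and that of all tested genes was 0.00, 0.00, -0.01 and 0.00. No member was called in all 4 clones, and CARD10 and CARD8 were called in none by this fit, which has no replicate term.

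BCL10 (ENSG00000142867, chr1:85265776-85276904, minus strand), the adaptor that forms the filament, was measured at 3.26, 3.47 and 4.04 FPKM in Non-target. The C9orf89-CKO libraries had 2.74, 3.02 and 2.79 FPKM. The groups did not overlap, and the log2 fold change was -0.32 (SE 0.10, adjusted p = 0.0365). The call did not hold in 7 of the 24 alternative analyses, among them those without Non-target replicate 2 (adjusted p = 0.0638), without Non-target replicate 3 (0.152), without C9orf89-CKO replicate 1 (0.0988) and without C9orf89-CKO replicate 3 (0.0932). From replicates 2 and 3 alone the value was -0.36 (adjusted p = 0.0618), and BCL10 was then called lower in MLPH-CKO (-0.37, adjusted p = 0.0477). BCL10 was at 2.72, 3.42 and 2.93 FPKM in MAGI2-CKO and at 3.07, 3.02 and 2.72 FPKM in MLPH-CKO, and neither difference from Non-target passed the test (log2 fold changes -0.24, adjusted p = 0.0851, and -0.28, adjusted p = 0.0582). In RHBDD2-CKO it was at 3.97, 4.37 and 3.77 FPKM, the group with the highest mean, 4.04 ± 0.31 FPKM (SD, n = 3), with a log2 fold change against Non-target of 0.17 (SE 0.10, adjusted p = 0.231). BCL10 and CARD19 were thus both low in C9orf89-CKO but differed in RHBDD2-CKO, where CARD19 was called lower and BCL10 was not called against Non-target. Against RHBDD2-CKO, BCL10 was lower in C9orf89-CKO by -0.49 on the log2 scale (SE 0.10, adjusted p = 0.00306).

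MALT1 (ENSG00000172175, chr18:58671386-58754477, plus strand) encodes the paracaspase that cleaves negative regulators of NF-κB. It was at 1.98, 1.58 and 1.78 FPKM in Non-target and at 2.38, 2.01 and 2.26 FPKM in RHBDD2-CKO, where the lowest library lay just above the highest control. The log2 fold change was 0.30 (SE 0.11) and the adjusted p, 0.048, was close to the threshold, so that 15 of 24 alternative analyses no longer called it, nor did replicates 2 and 3 alone (adjusted p = 0.0916). The other 3 clones overlapped Non-target, with log2 fold changes of 0.05, -0.04 and 0.10. BCL10 was 1.73 times as abundant per length as MALT1 over the 15 libraries.

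**Figure D2:**
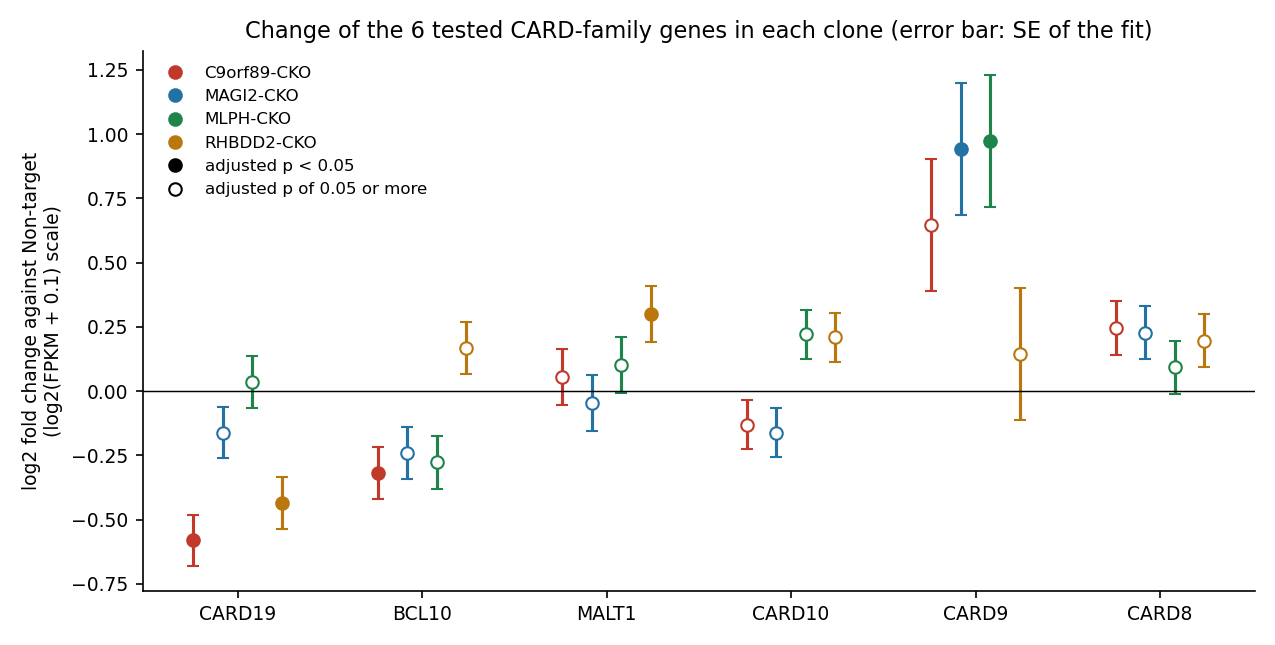
Log2 fold change against Non-target (y axis, log2(FPKM + 0.1) scale) of the 6 tested CARD genes (x axis) in the 4 clones (colours), with the SE of the fit as error bars and filled points for adjusted p below 0.05. CARD19 is called lower in C9orf89-CKO and RHBDD2-CKO, at -0.58 and -0.44, and CARD9 higher in MAGI2-CKO and MLPH-CKO, at 0.94 and 0.97.

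Among the 3 coiled-coil scaffolds of the 8 genes, CARD10 was the abundant one in these cells. CARD10 (ENSG00000100065, chr22:37490362-37519542, minus strand), the scaffold used by G-protein-coupled and growth factor receptors outside the blood, ranged from 4.38 to 6.70 FPKM and averaged 12.5 times the FPKM of CARD9 and 75.7 times that of CARD14. Its values were 4.38, 4.84 and 5.05 FPKM in MAGI2-CKO and 4.71, 5.75 and 5.57 FPKM in Non-target. The C9orf89-CKO libraries had 4.46, 5.18 and 4.95 FPKM. They were 5.59, 6.41 and 6.70 FPKM in MLPH-CKO and 5.81, 6.44 and 6.27 FPKM in RHBDD2-CKO. No clone passed the test against Non-target in this fit, with log2 fold changes between -0.16 and 0.22. Replicate 1 was the lowest CARD10 library in each of the 5 groups. From replicates 2 and 3 alone, which scattered less, CARD10 was called lower in MAGI2-CKO (-0.19, adjusted p = 0.0348) and higher in MLPH-CKO (0.21, adjusted p = 0.0272). C9orf89-CKO lay below MLPH-CKO (-0.35, SE 0.10, adjusted p = 0.0279) and below RHBDD2-CKO (-0.34, SE 0.10, adjusted p = 0.0177), without overlap in either case. The first of these calls was lost without C9orf89-CKO replicate 1 or 3 or MLPH-CKO replicate 2 or 3 (adjusted p = 0.0935, 0.0621, 0.0861 and 0.108), and the second without C9orf89-CKO replicate 1 or RHBDD2-CKO replicate 2 or 3 (adjusted p = 0.0683, 0.0626 and 0.0548).

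In these direct comparisons of C9orf89-CKO with another clone, 1 of 6 tested members was called against MAGI2-CKO (CARD19), where 22.5% of all tested genes were called. Against MLPH-CKO it was 2 of 6 (CARD19 and CARD10), where 14.2% of all tested genes were called. Against RHBDD2-CKO it was 2 of 6 (BCL10 and CARD10), where 29.3% were called. All 5 of these differences were lower in C9orf89-CKO. They share the C9orf89-CKO libraries, and CARD19 and CARD10 each appear 2 times among them, so the 5 are not independent.

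CARD9 (ENSG00000187796, chr9:136361903-136373681, minus strand), the scaffold of myeloid cells downstream of SYK-coupled receptors, was scarce, with 26 to 99 fragments in a library. It was at 0.251, 0.280 and 0.221 FPKM in Non-target and at 0.222, 0.379 and 0.275 FPKM in RHBDD2-CKO. It was at 0.392, 0.626 and 0.806 FPKM in MLPH-CKO, 0.452, 0.381 and 0.520 FPKM in C9orf89-CKO and 0.492, 0.716 and 0.528 FPKM in MAGI2-CKO. All 9 libraries of these 3 clones lay above all 3 Non-target libraries, while RHBDD2-CKO overlapped them. The log2 fold changes were 0.97 in MLPH-CKO (SE 0.26, adjusted p = 0.0119), 0.94 in MAGI2-CKO (SE 0.26, adjusted p = 0.0118), 0.65 in C9orf89-CKO (SE 0.26, adjusted p = 0.0825) and 0.14 in RHBDD2-CKO (SE 0.26, adjusted p = 0.703).

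Over the alternatives other than leaving out a library, which include other pseudocounts, the values ranged from 0.355 to 1.24 in MLPH-CKO and from 0.334 to 1.21 in MAGI2-CKO. CARD9 entered the test only through 5 clone libraries at or above 0.5 FPKM, none of them a control, so its passing the filter and its being higher are not independent. With no filter the calls in MAGI2-CKO and MLPH-CKO remained, at adjusted p = 0.023 and 0.0231. The call in MAGI2-CKO was lost without MAGI2-CKO replicate 2 (0.0561) and that in MLPH-CKO without MLPH-CKO replicate 3 (0.0597), and both held from replicates 2 and 3 alone (adjusted p = 0.0224 and 0.0131). DNLZ, a mitochondrial chaperone partner whose annotated gene overlaps CARD9 on the same strand, averaged 0.191 FPKM in MAGI2-CKO, 0.167 in MLPH-CKO, 0.0783 in RHBDD2-CKO, 0.0672 in C9orf89-CKO and 0.0645 in Non-target, from at most 15 fragments. The part of DNLZ in the CARD9 values was not tested.

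Other features of the libraries are given beside the CARD9 values. PTPRC, the common leukocyte antigen, had no fragment in any group but MLPH-CKO, and MPO had none in any group. Fragments of mitochondrial genes made up 1.57% to 2.63% of Non-target libraries, 2.54% to 3.91% in MLPH-CKO, 2.44% to 3.28% in MAGI2-CKO and 1.65% to 1.73% in RHBDD2-CKO. It was 1.87% to 3.10% in C9orf89-CKO, and every clone overlapped the control. In replicates 2 and 3 the control had 1.57% and 1.61%, below each clone. MAGI2-CKO then had 2.44% and 2.64%, MLPH-CKO 3.91% and 2.89%, C9orf89-CKO 1.88% and 1.87%, and RHBDD2-CKO 1.73% and 1.71%. Their part in the CARD9 result was not tested.

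The remaining scaffold was almost silent. CARD14 (ENSG00000141527, chr17:80169992-80209331, plus strand), the scaffold of keratinocytes, gave 4 to 21 fragments in a library and 0.0262 to 0.129 FPKM, and each clone overlapped Non-target. It overlaps SGSH on the other strand, which averaged 5.25 FPKM, and the sources used here do not state whether fragments were counted by strand.

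CARD8 and CARD16 belong to the caspase-1 branch of the family. CARD8 (ENSG00000105483, chr19:48180770-48255946, minus strand) was at 2.61, 2.42 and 2.23 FPKM in MAGI2-CKO and 2.16, 1.90 and 2.10 FPKM in Non-target. C9orf89-CKO had 2.64, 2.57 and 2.17 FPKM. It was at 2.35, 2.33 and 1.92 FPKM in MLPH-CKO and 2.28, 2.49 and 2.33 FPKM in RHBDD2-CKO. The libraries of all clones but MLPH-CKO lay above those of Non-target, but by little, and none of the log2 fold changes, 0.25, 0.23, 0.09 and 0.20 in the order of the clones, passed the test (adjusted p = 0.104, 0.11, 0.554 and 0.168). It overlaps ZSWIM9 and CARD8-AS1 in part, both on the other strand, at 3.19 and 0.814 FPKM on average.

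CARD16 (ENSG00000204397, chr11:105041326-105101431, minus strand) had 0 fragments in every library, among 262601551 fragments in all. A count of 0 allows up to 3 fragments in a library, or 0.0911 to 0.115 FPKM for this gene, counting error only. No fragment was assigned either to CARD17, a near copy that overlaps it, and fragments that fit both could have been left out of the counts. GAPDH, PPIA, HPRT1 and TBP had 454 fragments or more in every library.

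In order of level, CARD19 and CARD10 led in every group, followed by BCL10, CARD8, MALT1, CARD9, CARD14 and CARD16. CARD19 was ahead of CARD10 in Non-target, MAGI2-CKO and MLPH-CKO, and CARD10 ahead of CARD19 in C9orf89-CKO and RHBDD2-CKO. The libraries of CARD19 and CARD10 overlapped in Non-target and MLPH-CKO but not in the other 3 groups. Those of CARD8 and MALT1 overlapped in Non-target, MLPH-CKO and RHBDD2-CKO, and no other neighbours in the order overlapped in any group. Every tested member but CARD9 stayed within 0.658 to 1.24 times its control mean in all 4 clones, and CARD9 went up to 2.43 times.

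Promoter sequence was compared because CARD10 and CARD9, close relatives, differed so much in level. In the 250 bases before the start that RefSeq lists (GRCh38.p14, 6 of the 8 members matched), the dinucleotide CG, which reads the same on both strands, occurred 33 times in CARD10, 30 in MALT1, 28 in BCL10 and 23 in CARD19. It occurred 5 times in CARD9 and 2 to 4 times in the 5 listed starts of CARD8. Of 35116 promoters of the same length, 8.15% held as many CG as CARD10 or more, 25.8% as many as CARD19 or more and 65.7% as many as CARD9 or more. The order of CG counts was not that of the levels: CARD8, with the fewest, was above MALT1 in FPKM. Whether promoter sequence bears on the levels was not tested. Most RefSeq starts differ from those of the GENCODE v29 genes given above. Inside the GENCODE gene lie 127 of the 250 bases of CARD10, 12 of CARD9, 79 of MALT1 and all 250 of BCL10, as well as all 250 for 3 of the 5 CARD8 starts, 34 for another and 0 for the last. The bases that lie before both starts are shown, 123 for CARD10 (chr22:37519543-37519665) and 238 for CARD9 (chr9:136373682-136373919), both on the minus strand, with each CG in capitals.
CARD10 promoter: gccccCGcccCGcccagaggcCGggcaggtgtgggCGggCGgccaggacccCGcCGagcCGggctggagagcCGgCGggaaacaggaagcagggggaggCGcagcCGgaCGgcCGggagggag
CARD9 promoter: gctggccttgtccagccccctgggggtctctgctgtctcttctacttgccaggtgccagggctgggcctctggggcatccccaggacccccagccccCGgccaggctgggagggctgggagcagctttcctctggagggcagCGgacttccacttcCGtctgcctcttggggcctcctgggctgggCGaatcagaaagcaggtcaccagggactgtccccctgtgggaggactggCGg

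The genes around CARD19 were examined to see whether its lower level was shared along the chromosome. NINJ1, which encodes the protein that ruptures the plasma membrane at the end of lytic cell death, lies on the opposite strand with its nearer end 8206 bases beyond CARD19. NINJ1 had a lower mean in each clone than in Non-target. It averaged 10.3 ± 1.26 FPKM in Non-target, 8.15 ± 0.55 in RHBDD2-CKO, 7.95 ± 1.37 in MAGI2-CKO, 7.62 ± 1.07 in C9orf89-CKO and 7.42 ± 0.73 in MLPH-CKO (SD, n = 3). The log2 fold changes were -0.44, -0.38, -0.47 and -0.33, with adjusted p = 0.0339, 0.0473, 0.0213 and 0.0813. NINJ1 was thus called lower in MAGI2-CKO and MLPH-CKO, where CARD19 was not, and not in RHBDD2-CKO, where CARD19 was. The call was lost in 15 of 24 alternative analyses in MAGI2-CKO, 6 in C9orf89-CKO and 4 in MLPH-CKO. On the other side FGD3, an exchange factor for the GTPase CDC42, was higher in C9orf89-CKO, at 0.730, 0.632 and 0.703 FPKM against 0.190, 0.340 and 0.194 FPKM in Non-target (log2 fold change 1.23, SE 0.22, adjusted p = 0.00116). FGD3 passed the filter only through the 3 C9orf89-CKO libraries, so its passing and its being higher there are not independent. It was also called in MLPH-CKO (0.67, adjusted p = 0.033), a call lost in 8 alternative analyses.

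Within 3 Mb of the CARD19 start, by the lower coordinate of each gene, 32 other genes were tested. In C9orf89-CKO 8 of them were called, 6 lower and 2 higher, and their median log2 fold change was -0.10. In MAGI2-CKO 7 were called, all lower (median -0.16), in MLPH-CKO 8, of which 5 lower (median -0.08), and in RHBDD2-CKO 4, of which 1 lower (median -0.03). Over all tested genes 26.0%, 36.1%, 30.1% and 34.1% were called in the 4 clones, and 13.1%, 19.1%, 15.5% and 16.7% were called lower. Whether the genes near CARD19 differed from all genes was not tested. The fall of CARD19 was exceeded by 4 of the 32 in C9orf89-CKO and by 3 of the 32 in RHBDD2-CKO. One of the called genes in this window is SYK, the kinase that couples immune receptors to CARD9, whose start lies 2.29 Mb before that of CARD19.

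The genes whose levels followed those of CARD19 most closely over the 15 libraries were TMEM160, MCRIP1, ARHGDIG, FBRS and AEN, by Pearson correlation of log2(FPKM + 0.1) among genes of at least 1 FPKM on average (r = 0.95, 0.94, 0.92, 0.92 and 0.91). TMEM160, a small mitochondrial membrane protein, averaged 95.1 FPKM in Non-target and 64.9, 91.3, 106 and 67.5 FPKM in the clones, low in the same pair of clones as CARD19. For BCL10 they were ST6GAL1, ANTXR1, OXSM, POLR3E and ABT1 (r = 0.90 for each). The 15 points come from 5 clones, and libraries of 1 clone share their state, so these values are a description. With each other, CARD19 and BCL10 gave r = -0.02.

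The pathway around BCL10 was followed in 9 lists of genes, of which 104 genes outside the 8 members were matched and 83 tested. Of these 83, 30 were called in MAGI2-CKO (13 higher and 17 lower, 36.1%), 24 in RHBDD2-CKO (10 and 14, 28.9%), 23 in MLPH-CKO (10 and 13, 27.7%) and 22 in C9orf89-CKO (13 and 9, 26.5%). These shares are near those of all tested genes given above, and the median log2 fold changes were 0.01, -0.12, -0.03 and 0.03. In none of the 4 clones were 32 of the 83 called.

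The first list held receptors, G proteins, lipases and kinases upstream of the BCL10 complex. Of its 18 genes, all tested, 13 were called in MAGI2-CKO (4 higher and 9 lower), 9 in C9orf89-CKO (5 and 4), 9 in RHBDD2-CKO (2 and 7) and 9 in MLPH-CKO (3 and 6), and 2 were called in no clone. Of all tested genes 36.1%, 26.0%, 34.1% and 30.1% were called in these clones in the order just named, and the difference between the list and all genes was not tested. GNB1, a G protein beta subunit, was higher in all 4 clones, with log2 fold changes of 0.52, 0.54, 0.52 and 0.58 (adjusted p of at most 4.55e-05), and so was PRKCA, the classical protein kinase C alpha, by 0.21, 0.18, 0.22 and 0.26. PRKCD, protein kinase C delta (-0.38, -0.77, -0.34 and -0.76), and F2R, the thrombin receptor that signals through CARD10 (-0.27, -0.49, -0.27 and -0.24), were lower in all 4. Of all tested genes, 3.39% were called higher in all 4 clones and 3.26% lower. Of the 24 alternative analyses, the PRKCA call was lost in 6, 13, 4 and 1 in the 4 clones, the PRKCD call in 3 for C9orf89-CKO and 5 for MLPH-CKO, and the F2R call in 2 for C9orf89-CKO, 3 for MLPH-CKO and 5 for RHBDD2-CKO.

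The widest differences between clones in this list were in PLCB1 and PRKCB. PLCB1, the phospholipase C that makes the activator of protein kinase C, was at 1.74, 1.51 and 1.55 FPKM in Non-target. It was at 0.142, 0.253 and 0.157 FPKM in MLPH-CKO, 0.0626, 0.0287 and 0.0207 FPKM in C9orf89-CKO and 0.0237, 0.0118 and 0.0206 FPKM in MAGI2-CKO, but at 1.62, 1.60 and 1.497 FPKM in RHBDD2-CKO. The log2 fold changes of the first 3 clones were -3.64, -3.84 and -2.60, and that of RHBDD2-CKO was -0.02 (adjusted p = 0.951). At such low levels the size depends on the pseudocount, and over the alternatives other than leaving out a library the 3 values ranged from -5.48 to -1.33, -6.33 to -1.35 and -3.12 to -1.14. PRKCB, protein kinase C beta, went from 0.534, 0.501 and 0.452 FPKM in Non-target to 1.74, 1.97 and 1.88 FPKM in C9orf89-CKO. It fell to 0.0298, 0.0266 and 0.0388 FPKM in RHBDD2-CKO. PRKCB thus had log2 fold changes of 1.72 and -2.18 in these clones (adjusted p = 1.45e-05 and 1.55e-06), and -0.43 and 0.41 in MAGI2-CKO and MLPH-CKO (adjusted p = 0.0719 and 0.0956). The value in RHBDD2-CKO ranged from -3.81 to -0.535 over the same alternatives.

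SYK, whose signal reaches CARD9, was at 7.10, 7.32 and 7.18 FPKM in MLPH-CKO, 6.74, 6.86 and 6.97 FPKM in Non-target, 2.33, 2.45 and 2.47 FPKM in MAGI2-CKO and 3.60, 3.49 and 3.60 FPKM in RHBDD2-CKO. C9orf89-CKO, with 4.91, 5.06 and 5.16 FPKM, lay below Non-target and above RHBDD2-CKO. It was called lower in all clones but MLPH-CKO (log2 fold changes -0.44, -1.47, 0.07 and -0.92). CARD9 was thus higher in a clone with less SYK, MAGI2-CKO, and in one where SYK was not called, MLPH-CKO. A link between SYK and CARD9 was not tested. EGFR, a receptor that can act through CARD10, was lower in MAGI2-CKO (-1.23, adjusted p = 5.97e-06) and MLPH-CKO (-0.41, adjusted p = 0.0205). LPAR1, the lysophosphatidic acid receptor, was lower in all clones but C9orf89-CKO (-0.37, -0.79 and -1.11). The EGFR call in MLPH-CKO was lost in 5 and the LPAR1 call in MAGI2-CKO in 8 of 24 alternative analyses.

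**Figure D3:**
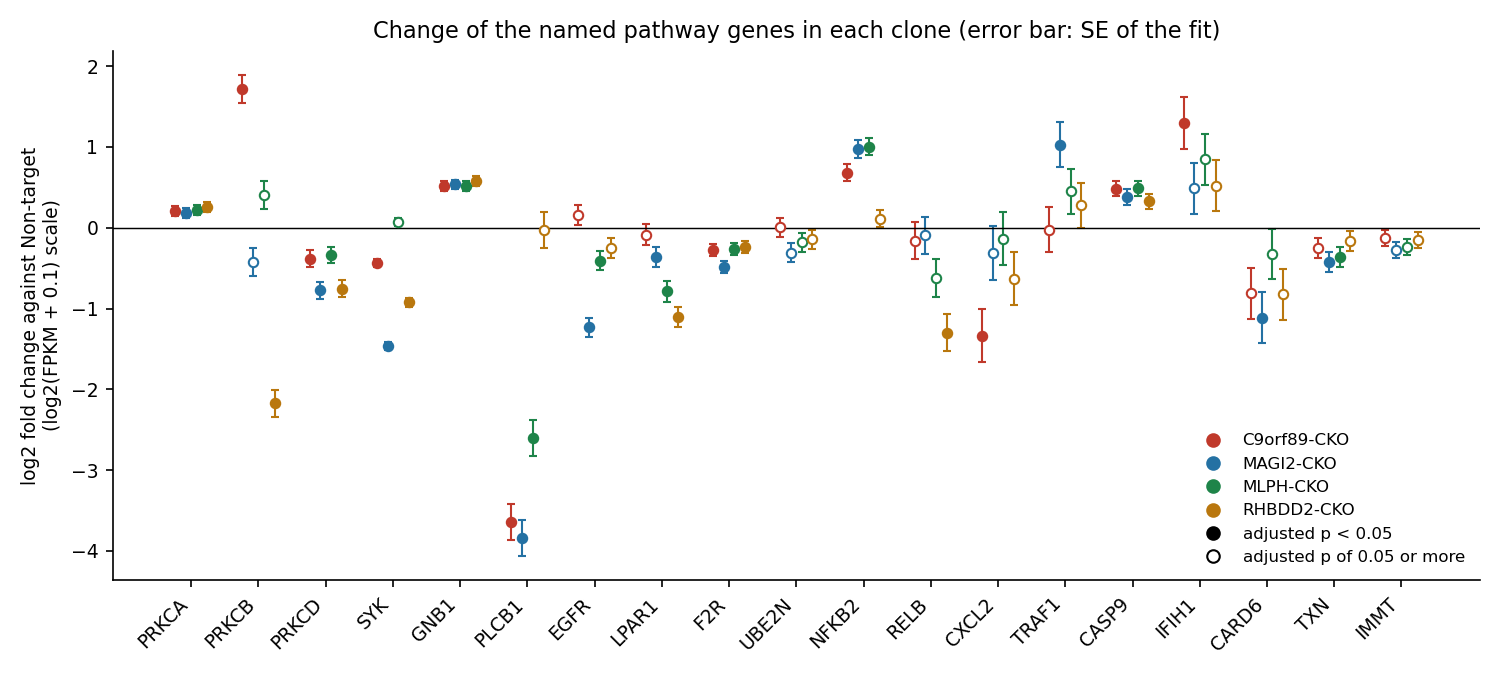
Log2 fold change against Non-target (y axis, log2(FPKM + 0.1) scale) of the named pathway genes (x axis) in the 4 clones (colours), with the SE of the fit as error bars and filled points for adjusted p below 0.05. PLCB1 is at -3.64, -3.84 and -2.60 in the clones other than RHBDD2-CKO, where it is at -0.02, PRKCB moves in opposite directions in C9orf89-CKO and RHBDD2-CKO, and GNB1 is near 0.5 in all 4.

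Downstream of BCL10, of 17 ubiquitin ligases and kinases, 16 were tested, and 5 were called in MAGI2-CKO (SHARPIN and CHUK higher, TAB3, IKBKB and BIRC2 lower), 2 in C9orf89-CKO (CHUK higher, RBCK1 lower), 2 in RHBDD2-CKO (TAB2 higher, IKBKG lower) and 2 in MLPH-CKO (CHUK higher, TRAF6 lower). Of all tested genes 36.1%, 26.0%, 34.1% and 30.1% were called in these clones in the order just named. IKBKG has a near-identical pseudogene copy, so its value is uncertain. UBE2N, the ubiquitin-conjugating enzyme of TRAF6 and the most abundant of this list, was not called in any clone (log2 fold changes 0.00, -0.31, -0.18 and -0.14). Of 10 MALT1 substrates, all tested, 3, 1, 1 and 3 were called in the clones, where 26.0%, 36.1%, 30.1% and 34.1% of all tested genes were. BCL10 itself is one of these 10, and RC3H2, an RNA-binding relative of roquin, was called higher in all clones but MLPH-CKO.

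Of 23 NF-κB subunits, inhibitors and target genes, SOD2 matched more than 1 identifier and was left out, 14 of the other 22 were tested, and 2, 2, 2 and 4 were called in the 4 clones. These are 14.3%, 14.3%, 14.3% and 28.6% of the 14, beside 26.0%, 36.1%, 30.1% and 34.1% of all tested genes. NFKB2, which encodes the p100 precursor of the p52 subunit, was at 6.32, 6.81 and 6.19 FPKM in Non-target. It was at 12.7, 12.7 and 13.6 FPKM in MLPH-CKO, 9.79, 10.8 and 10.5 FPKM in C9orf89-CKO and 11.6, 13.0 and 13.8 FPKM in MAGI2-CKO, all above the control. In RHBDD2-CKO it was at 5.72, 8.12 and 7.25 FPKM. The log2 fold changes were 0.68, 0.98 and 1.00 (adjusted p = 0.000528, 1.77e-05 and 2.07e-05) and 0.11 (adjusted p = 0.46). The 3 clones in which NFKB2 was called were those whose CARD9 libraries all lay above Non-target. Of these, CARD9 was called in MAGI2-CKO and MLPH-CKO only, and PLCB1 was called lower in all 3. A link between these genes was not tested.

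The other named genes of this list changed in 1 clone each. NFKB1 was called lower in MLPH-CKO, at a mean of 4.45 FPKM against 8.04 FPKM in Non-target. RELB, the partner of p52 and also a MALT1 substrate, was lower in RHBDD2-CKO (-1.30, adjusted p = 0.000925), where NFKBIA and IER3 were lower and NFKBIZ higher. CXCL2, a chemokine gene that NF-κB induces, was lower in C9orf89-CKO (-1.34, adjusted p = 0.00954), from 11 to 16 fragments in a Non-target library to 3 to 8. TRAF1, another NF-κB target, was higher in MAGI2-CKO (1.03, adjusted p = 0.0114). The classical targets were otherwise mostly below the filter, and 6 of the 14 tested genes were called in no clone.

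**Figure D4:**
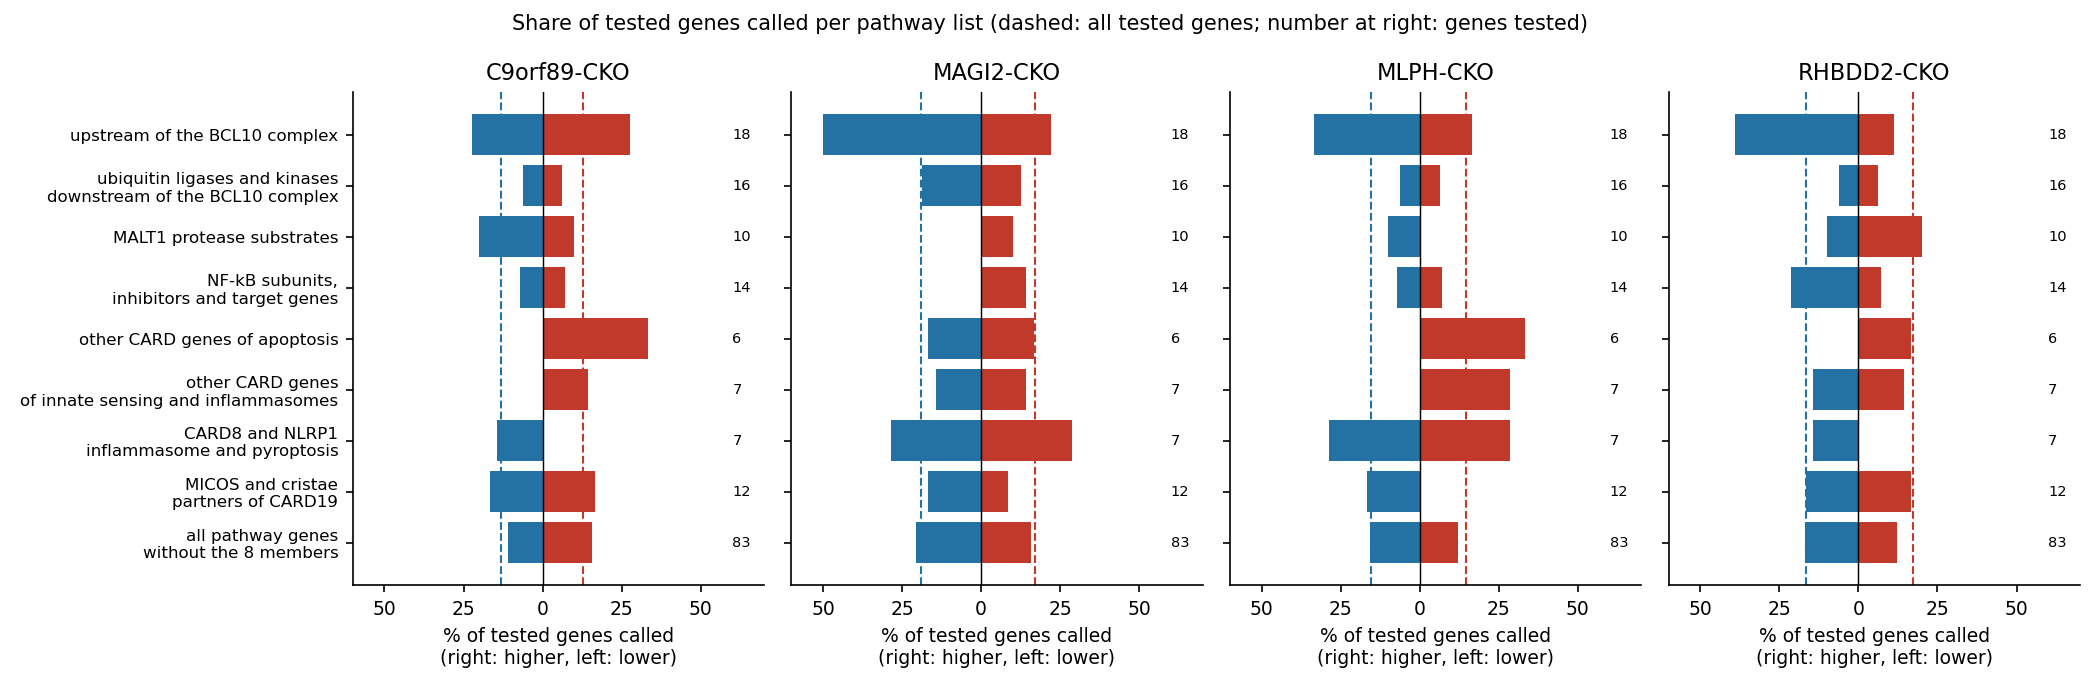
Share of tested genes called (x axes, percent; higher to the right in red, lower to the left in blue) in 8 pathway lists and in all 83 tested pathway genes (rows), one panel a clone, with the number tested at the right and dashed lines at the shares of all 16175 tested genes. The upstream list reaches 13 of 18 genes in MAGI2-CKO, and the 83 genes together are close to the dashed lines in each clone.

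Other CARD genes were counted in 2 lists. Of 8 CARD genes of apoptosis, 6 were tested, and CASP9, the initiator caspase of the apoptosome, was higher in all 4 clones. In all, 2, 2, 2 and 1 of the 6 were called in the 4 clones, or 33.3%, 33.3%, 33.3% and 16.7%. Of all tested genes 26.0%, 36.1%, 30.1% and 34.1% were called, and 3.39% were called higher in all 4 clones. CASP9 was at 2.15, 2.92 and 2.57 FPKM in Non-target and between 3.08 and 3.68 FPKM in the 12 clone libraries, with log2 fold changes of 0.48, 0.38, 0.49 and 0.33 (adjusted p = 0.00224, 0.00645, 0.00161 and 0.0166). The call was lost in 1 of 24 alternative analyses in MAGI2-CKO and in 4 in RHBDD2-CKO. APAF1, the scaffold of the apoptosome, was called higher in C9orf89-CKO and MLPH-CKO. Of 16 CARD genes of innate sensing, 7 were tested and 5 had no fragment in any library. In the 4 clones 1, 2, 2 and 2 of the 7 were called, beside 26.0%, 36.1%, 30.1% and 34.1% of all tested genes. MAVS, the mitochondrial adaptor of RNA sensing, was higher in MLPH-CKO and RHBDD2-CKO. IFIH1, which encodes the RNA sensor MDA5, was higher in C9orf89-CKO (1.30, SE 0.32, adjusted p = 0.00911), at 0.522 to 0.705 FPKM against 0.0976 to 0.266 FPKM. It passed the filter through these 3 libraries and 1 of MLPH-CKO, none of them a control. CARD6 was lower in MAGI2-CKO (-1.11, SE 0.31, adjusted p = 0.0143), but not called from replicates 2 and 3 alone (adjusted p = 0.13). CARD6 averaged 0.515 FPKM in Non-target and 0.389 FPKM or less in each clone. Its passing the filter and its being lower may therefore not be independent.

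Around CARD8, 7 of 13 inflammasome and pyroptosis genes were tested, and 1, 4, 4 and 1 were called in the clones, or 14.3%, 57.1%, 57.1% and 14.3%, where 26.0%, 36.1%, 30.1% and 34.1% of all tested genes were. NLRP1, the sensor related to CARD8, and DPP8, a protease that restrains both, were higher in MAGI2-CKO and MLPH-CKO, while NLRP1 was lower in RHBDD2-CKO. TXN, a thioredoxin that binds NLRP1 and the most abundant gene of the list, was lower in MAGI2-CKO (-0.43, adjusted p = 0.0163) and MLPH-CKO (-0.36, adjusted p = 0.0418), calls lost in 3 and 11 of 24 alternative analyses. Of 12 genes listed for MICOS and the cristae, all were tested, and 4, 3, 2 and 4 were called. Of all tested genes 26.0%, 36.1%, 30.1% and 34.1% were called. The calls went both ways, with 2 higher and 2 lower in C9orf89-CKO and again in RHBDD2-CKO, 1 and 2 in MAGI2-CKO and 0 and 2 in MLPH-CKO. DNAJC11, a MICOS-associated J protein, was higher in all clones but MLPH-CKO, and APOOL, a MICOS subunit that binds cardiolipin, in C9orf89-CKO and RHBDD2-CKO. SAMM50, the outer membrane partner of MICOS, was lower in all clones but RHBDD2-CKO, and CHCHD6 in all but MAGI2-CKO. IMMT, the organizer of MICOS and the most abundant of the 12, was not called in any clone (-0.13, -0.28, -0.24 and -0.15).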

How the data were processed

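FPKM values of 58735 genes in 15 libraries, 3 per group, were analysed. The deposited FPKM were made by the authors, whose submission notes name HISAT2 2.0.5, featureCounts 1.5.0-p3 and DESeq2; the genome build is not given in the sources used here, and gene identifiers were matched to GENCODE v29 (GRCh38). RNA came from wells of each clone, by RNeasy with DNase I, and was sequenced on an Illumina NovaSeq from NEBNext Ultra RNA libraries; whether counting used strand is not given in the sources used here. That the values are FPKM was inferred from them. Fragment counts were recovered from the FPKM steps, and 100% of values came out whole within 0.02 fragments. Genes reaching 0.5 FPKM in 3 libraries or more (16175) were tested with limma 3.58.1 in R 4.3.3 on log2(FPKM + 0.1), 5 groups in 1 fit with an intensity trend, Benjamini-Hochberg adjustment over all tested genes and a threshold of 0.05. The fit was tested on simulated data. Tables and plots used Python 3.11.15 with pandas 2.3.3, numpy 2.4.6 and matplotlib 3.10.9.

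Each of the 4 clones was compared with Non-target, and C9orf89-CKO also with each other clone, 7 comparisons in all. Members and gene lists were chosen with earlier results of these data known. By rule, the text names the 8 members, list genes called in 1 direction in all 4 clones or with a log2 fold change of at least 1, otherwise the most abundant gene of a list, neighbours of members and the 5 genes most correlated with CARD19 and with BCL10; other genes are named where a count is 5 or fewer, after their values were seen. The guide was matched to transcripts by exact identity, and promoters by gene symbol. Same-numbered libraries were not paired by the labels. Alternatives were another pseudocount, other filters, quantile normalization, no trend, the 6 libraries of a comparison, a replicate block, voom on recovered fragments and leaving out each library, and, chosen after the data had been seen, leaving out the first library of every group. Results that need certain genes are not reported here.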

Additional observations from a re-analysis of the deposited data

How the results depend on the processing

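Counts of all called genes stayed within 1.5 times the reported value under every alternative and left-out library, with ranges without 1 library of 4750 to 5965 in MAGI2-CKO, 4271 to 5640 in RHBDD2-CKO, 3875 to 5023 in MLPH-CKO and 3288 to 4365 in C9orf89-CKO. Called CARD genes, 2, 1, 1 and 2 in the 4 clones against Non-target, ranged over 1 to 2, 1 to 1, 0 to 2 and 1 to 2 without 1 library, and over 1 to 1, 1 to 2 and 1 to 2 for C9orf89-CKO against each of the other clones. Called pathway genes, 22, 30, 23 and 24, ranged over 18 to 25, 23 to 32, 15 to 24 and 18 to 29. In C9orf89-CKO 1 CARD gene was called with no filter, with only the 6 libraries, and from replicates 2 and 3, and 3 without the trend, which adds CARD9 (adjusted p = 0.0469), while CARD8 was called with voom (0.0463). In MAGI2-CKO 0 were called with a mean of at least 1 FPKM, where CARD9 is not tested, and 2 from replicates 2 and 3. In MLPH-CKO 0 were called with a mean of at least 1 FPKM, 2 with quantile normalization and 3 from replicates 2 and 3, and only 12 pathway genes with the 6 libraries alone. In RHBDD2-CKO 1 was called with a pseudocount of 0.01, no filter, quantile normalization and replicates 2 and 3, 0 with the 6 libraries alone, and 40 pathway genes from replicates 2 and 3. For C9orf89-CKO 1 was called against MLPH-CKO with the 6 libraries alone and 3 against RHBDD2-CKO with voom. The causes were not tested.

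The correlation of deviations from group means between same-numbered libraries was above 0 in all 30 pairs (0.00103 to 0.312, median 0.0856) but over 0.1 in only 12, against -0.21 to 0.127 (median -0.0887, 2 over 0.1) in 60 pairs of different number, and 11 of 15 libraries correlated best with their own number. The labels do not pair the libraries. With the replicate block, 3 CARD genes were called in RHBDD2-CKO, 3 in MLPH-CKO and 2 in MAGI2-CKO. CARD10 was among them in each (adjusted p = 0.00657, 0.00543 and 0.0241), and BCL10 in MLPH-CKO (0.0376).

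Signs turned only for members that were not called. Without 1 library the log2 fold change ranged over -0.0588 to 0.156 for CARD19 in MLPH-CKO, -0.0257 to 0.129 for MALT1 in C9orf89-CKO, -0.124 to 0.0481 for MALT1 in MAGI2-CKO and -0.00929 to 0.277 for CARD9 in RHBDD2-CKO. For C9orf89-CKO against MAGI2-CKO it ranged over -0.147 to 0.0122 for BCL10, -0.0258 to 0.0902 for CARD10 and -0.0366 to 0.102 for CARD8, and against RHBDD2-CKO over -0.00202 to 0.133 for CARD8. From replicates 2 and 3, chosen after seeing the data, the turned values were -0.0309 for CARD19 in MLPH-CKO and 0.00542 for MALT1 in MAGI2-CKO, and for C9orf89-CKO 0.0183 (BCL10) and 0.00425 (MALT1) against MLPH-CKO and -0.028 (CARD8) against RHBDD2-CKO. CARD9, CARD14 and CXCL2 rest on few fragments. At low levels sizes varied with the pseudocount and other settings. Over the alternatives other than leaving out a library, FGD3 ranged from 0.445 to 1.58, CXCL2 from -1.76 to -0.427 and IFIH1 from 0.435 to 1.73 in C9orf89-CKO, CARD6 from -1.47 to -0.359 and TRAF1 from 0.479 to 1.21 in MAGI2-CKO, and RELB from -1.49 to -0.589 in RHBDD2-CKO.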
